A study of Mus musculus with 13 samples.

Results

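RNA-Seq libraries of Lin- cKit+ BM cells from 4 NPmut mice were compared with those from 3 NrasG12D mice, 7 of the 13 libraries of the study, chosen by their labels alone. The comparison asks how the transcriptome of HSPCs that carry an oncogenic *Nras* allele differs when a mutant *p53* allele is present as well. The other 6 libraries, 3 from control and 3 from p53mut mice, served as the reference for the effect of mutant p53 without mutant Nras.

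All mice carried *Mx1-Cre*, a recombinase gene under an interferon-responsive promoter, and control mice carried nothing else. NrasG12D mice also had 1 mutant *Nras* allele, whose genotype field reads G21D and whose title reads G12D, and p53mut mice had 1 *p53* allele with the R172H change. NPmut mice had both mutant alleles, each expressed from its own locus after Cre removes a stop cassette. Control, p53mut, and NrasG12D mice were given pI-pC, a double-stranded RNA mimic that triggers interferon, 3 times at 100 μg from about 6 weeks of age. NPmut mice received none and were moribund when their cells were collected, with the other groups age-matched to them. The second mutant allele, the missing injections, and the stage of disease therefore fall together in NPmut mice and cannot be told apart in any value below. Each library came from 50000 sorted cells of 1 mouse.

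The Lin- cKit+ fraction of the BM lacks the surface proteins of mature blood cells and carries the receptor for stem cell factor. It holds HSCs together with the much more numerous progenitors of red cells, megakaryocytes, mast cells, granulocytes, monocytes, dendritic cells, and lymphocytes. NRAS is a small GTPase that relays growth factor signals to the RAF-MEK-ERK kinases, and the G12D change keeps it in its active, GTP-bound form. p53 is a transcription factor that is activated by DNA damage and oncogenic signals and that switches on genes for cell-cycle arrest and apoptosis. The R172H protein is a structural mutant with a damaged DNA-binding domain. In bulk RNA of such a mixture, fewer cells of a type and less RNA of a gene per cell cannot be told apart.

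Values are CPM, read counts relative to the TMM-scaled size of the library, listed in the order of mouse numbers. Fold changes are from an edgeR quasi-likelihood fit of all 13 libraries on the log2 scale, NPmut minus NrasG12D. Genes with an adjusted p-value under 0.05 and a change of at least 2-fold are called DEGs, and "rose" and "fell" are kept for these. Totals were 12576174 to 29124022 counts in NPmut and 15179592 to 17065410 in NrasG12D mice. Mitochondrial genes took 9.57 to 12.3% of the counts in NPmut and 6.64 to 7.70% in NrasG12D mice, which do not overlap. The exact permutation p, taken by doubling the smaller tail, was 0.0571. In this form of the test it is the smallest value that the 35 splits of these mice allow. A test on the absolute difference, which can go lower with groups of unequal size, was not run. The part of the mitochondrial difference in the results was not tested. The median SD of log2 CPM between mice was 0.35 in NPmut and 0.21 in NrasG12D. By Y-linked genes, NPmut mice 3 and 4 and NrasG12D mouse 2 were male.

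The sort was checked against its own markers. *Kit*, the marker that defines the gate, was at 563, 631, and 529 CPM in NrasG12D and at 370.4, 288, 449.9, and 379 CPM in NPmut mice. Every NPmut mouse was lower, by 1.55-fold in the fit (log2 fold change −0.63, SE 0.150, adjusted p = 0.0176). The lineage markers *Cd3e*, *Cd8a*, and *Ly6g* had too few counts to be tested, and none of the other 6 markers of the gate that were tested passed the adjusted p-value. The mutated genes themselves were expressed in every mouse. *Nras* (ENSMUSG00000027852; chromosome 3, 103058285 to 103067914, plus strand; GRCm38) was at 57.8, 58.7, and 61.7 CPM in NrasG12D and at 57.8, 50.4, 58, and 52.2 CPM in NPmut mice, and the groups overlapped (log2 fold change −0.12, SE 0.0952, adjusted p = 0.467). *Trp53* (ENSMUSG00000059552; chromosome 11, 69580359 to 69591873, plus strand) was at 119, 128, and 128 CPM in NrasG12D and at 95, 106, 97.5, and 78 CPM in NPmut mice. All 4 NPmut values were lower, but the difference stayed under 2-fold (log2 fold change −0.41, SE 0.104, adjusted p = 0.0241). Counts per gene do not separate the mutant from the WT allele of either gene.

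Of 17795 genes tested, 322 were higher and 463 lower in NPmut than in NrasG12D HSPCs, which is 1.81% and 2.6% of the genes. The groups did not overlap in 288 of the 322 and in 455 of the 463, against 9.34% and 11.2% of all genes tested. DEGs were picked by the difference between the same mice, so that their lack of overlap describes them and is no independent support. The median log2 fold change of all genes tested was 0.04. The count moved by over 1.5 times without NrasG12D mouse 1 or mouse 2. Without mouse 1, 143 genes were higher and 301 lower, 444 in all, and without mouse 2 the DEGs numbered 461, of which 289 were lower, against 785 with every mouse. NPmut mouse 3 lay near the NrasG12D mice for the immediate-early genes described later, and without it 405 genes were higher and 586 lower. The labels also carry an identification number for each animal. It is lower for NPmut mice 1, 2, and 4 than for NPmut mouse 3 and for every mouse of the other groups. What this number stands for is not given, and its part in the results was not tested. The gene groups described next are given as numbers of members that rose or fell, beside those background percentages, and the plot by mouse shows the groups' medians in all 13 libraries.

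**Figure D1:**
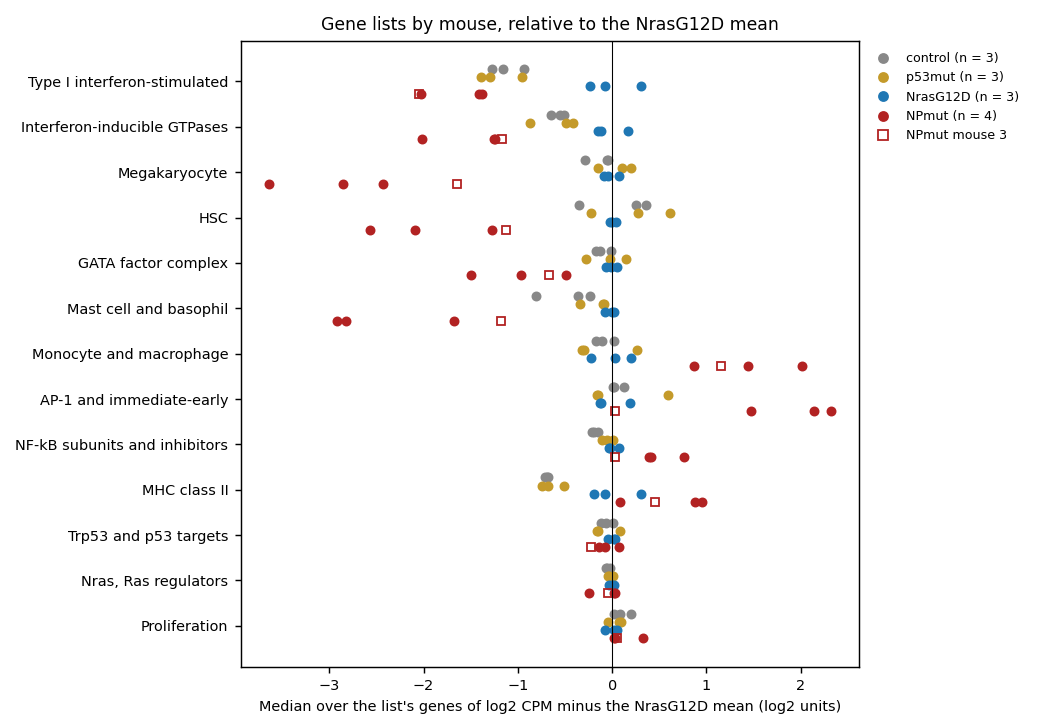
Each point is 1 mouse, placed at the median over a gene list of log2 CPM minus the mean of the 3 NrasG12D mice (x axis, log2 units), with 13 lists on the y axis and the 4 genotypes in colour. The 4 NPmut points lie between −3.64 and −1.64 for megakaryocyte genes and between 0.87 and 2.02 for monocyte genes, while NPmut mouse 3 (open square) lies at 0.03 for immediate-early genes, against 1.48 to 2.32 in the other 3.

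Antiviral genes induced by interferon fell in NPmut mice. Type I interferon acts through its receptor and JAK kinases on a transcription factor complex that holds IRF9 and binds the interferon-stimulated response element (ISRE) in the promoters of antiviral genes. Of 29 type I interferon-stimulated genes tested, 17 fell and 0 rose in NPmut mice, against a background of 2.6% lower genes, with a median log2 fold change of −1.78. *Oas2* (ENSMUSG00000032690; chromosome 5, 120730333 to 120749853, minus strand), an enzyme that makes the 2-5A activator of RNase L, was at 15.6, 18.7, and 29.5 CPM in NrasG12D and at 2.07, 1.27, 1.07, and 0.509 CPM in NPmut mice. The groups were far apart, 16.7-fold in the fit (log2 fold change −4.06, SE 0.338, adjusted p = 3.68e-05), with NPmut levels that rest on 41, 33, 20, and 6 counts. *Ifit1*, which binds viral RNA lacking a 2'-O-methylated cap, was at 8.97, 13.8, and 15.9 CPM in NrasG12D and at 1.21, 1.85, 1.18, and 0.763 CPM in NPmut mice. The highest NPmut value was far below the lowest NrasG12D value (log2 fold change −3.32, SE 0.335, adjusted p = 7.28e-05). *Ifi44*, an interferon-induced gene, was at 14.2, 25.6, and 30.2 CPM in NrasG12D and at 2.93, 2.55, 2.04, and 1.27 CPM in NPmut mice, again without overlap (log2 fold change −3.38, SE 0.371, adjusted p = 0.000168).

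The ISRE could be read in the promoters of these genes. To show the letters in members that fell and in 1 that did not pass the test, stretches around each match of GAAANNGAAA on either strand are printed from the RefSeq promoter windows (250 bases before to 50 after the start site, GRCm38.p6), 5' to 3' on the gene's strand, with the matches in capitals.
Ifit1, chr19:34640760-34640838, plus strand: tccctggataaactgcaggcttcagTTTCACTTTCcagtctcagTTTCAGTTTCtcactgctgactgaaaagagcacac
Isg15, chr4:156200850-156200921, minus strand: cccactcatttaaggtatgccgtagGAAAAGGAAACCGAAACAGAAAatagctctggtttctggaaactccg
Oas3, chr5:120777700-120777759, minus strand: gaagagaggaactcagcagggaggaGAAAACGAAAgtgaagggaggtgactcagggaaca
Irgm1, chr11:48871421-48871475, minus strand: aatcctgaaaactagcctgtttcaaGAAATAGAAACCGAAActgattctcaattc
Gbp2, chr3:142620579-142620638, plus strand: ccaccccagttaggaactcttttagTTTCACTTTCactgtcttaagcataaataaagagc
Stat2, chr10:128270251-128270310, plus strand: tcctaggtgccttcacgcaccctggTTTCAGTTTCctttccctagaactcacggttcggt
In *Isg15* the 3 matches overlap into a single run, *Irgm1* has 2 overlapping matches, and *Ifit1* holds 2 separate matches, the nearer ending 75 bases before its start site. *Stat2* is shown because it carries the letters but did not pass the test (36, 36.7, and 44.3 CPM in NrasG12D and 26.2, 21.4, 24.6, and 38.8 CPM in NPmut mice; log2 fold change −0.50, adjusted p = 0.0920). Of the interferon-stimulated genes, 22 had a window in the table, 25 windows in all, and 14 of the 25 windows (56.0%) held the ISRE letters, against 3.44% of all 32851 promoter windows. Among members that fell, 7 of 12 windows held it, and among tested members that were not DEGs, 6 of 12. The interferon-gamma-activated letters TTCNNNGAA, searched in the same way, were in 5 of the 25 windows and in 8.30% of all windows, and in 24 windows overall a match of these letters overlapped an ISRE match. A match describes the sequence of the window and is not a measured binding site.

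Sensors, regulators, and effectors of the response were among the members that fell. Of the cytosolic RNA sensors, *Ddx58* (RIG-I) was at 37.6, 47.4, and 44.7 CPM in NrasG12D and at 11.3, 6.98, 10.5, and 8.48 CPM in NPmut mice, with no overlap (log2 fold change −2.21, SE 0.198, adjusted p = 5.20e-05). *Ifih1* (MDA5) fell too (log2 fold change −1.51, adjusted p = 0.000127). *Irf7*, the transcription factor that amplifies interferon production, was at 29.2, 28.4, and 38.4 CPM in NrasG12D and at 6.27, 4.74, 5.79, and 4.07 CPM in NPmut mice (log2 fold change −2.61, SE 0.287, adjusted p = 0.000152). *Usp18*, a feedback inhibitor of the interferon receptor, also fell (log2 fold change −2.88, adjusted p = 0.000393), as did the ubiquitin-like modifier *Isg15* (log2 fold change −2.38, adjusted p = 0.00822) and the antiviral enzyme *Rsad2* (log2 fold change −1.86, adjusted p = 0.0103). The OAS family members *Oasl2* (log2 fold change −2.95, adjusted p = 2.56e-05) and *Oas3* (log2 fold change −2.64, adjusted p = 5.20e-05) and the receptor-transporting *Rtp4* (log2 fold change −2.82, adjusted p = 5.20e-05) fell as well, with every NPmut mouse below every NrasG12D mouse. *Rsad2* lost its call without NrasG12D mouse 3 (adjusted p = 0.0526), and *Isg15* when the compared groups alone, 7 libraries, were fitted (adjusted p = 0.0503). *Irf9*, of the factor complex itself, differed by under 2-fold, at 77.7 to 90.9 CPM in NrasG12D and 39.4 to 55.5 CPM in NPmut mice (log2 fold change −0.80, adjusted p = 0.00306). *Ifit2* (log2 fold change −0.37, adjusted p = 0.0705) and *Mx1*, the gene whose promoter drives the Cre transgene (log2 fold change −1.10, adjusted p = 0.118), did not pass the test, although in both every NPmut value was below every NrasG12D value.

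The same genes were compared by mouse with the other genotypes, of which control and p53mut mice had received the same injections as NrasG12D mice. Relative to the NrasG12D mean, the median over the interferon-stimulated genes was −1.28, −1.15, and −0.94 in control mice 1 to 3, −1.39, −1.30, and −0.96 in p53mut mice 1 to 3, and −1.41, −1.38, −2.05, and −2.03 in NPmut mice 1 to 4. By these medians all 10 mice outside NrasG12D were below all 3 NrasG12D mice, although 0 of the 29 genes were DEGs between NrasG12D and control mice, where 0.00562% of all genes were higher. *Oas2*, for example, was at 5.68 ± 0.701 CPM in control and at 4.46 ± 0.977 CPM in p53mut mice (SD, n = 3 each), between the NrasG12D and the NPmut values. Over the list, the median log2 fold change was 1.14 for NrasG12D against control and −0.60 for NPmut against control. These values share their control mice with each other and their NrasG12D or NPmut mice with the main comparison, and are given side by side only.

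**Figure D2:**
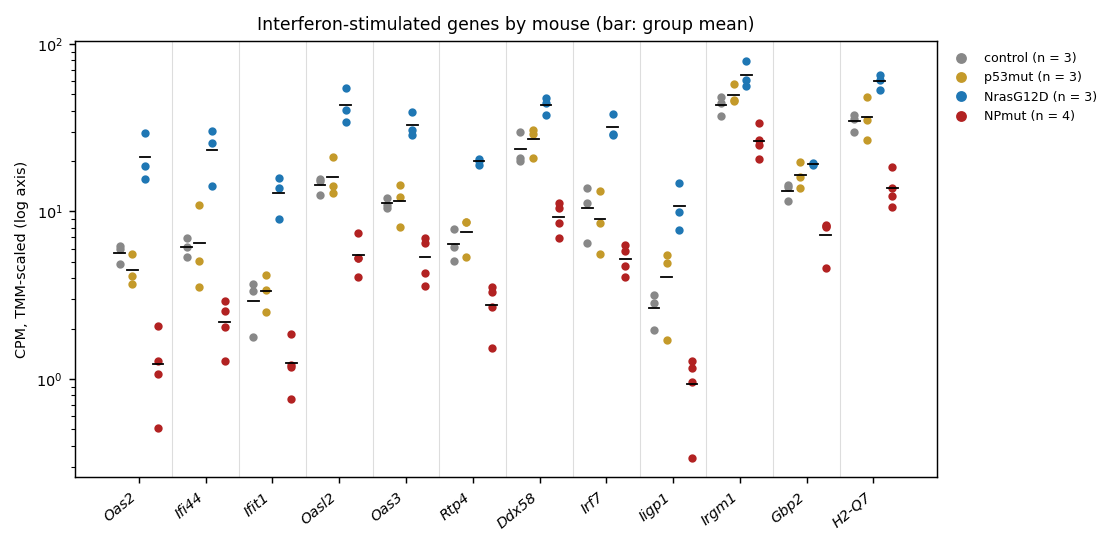
CPM of 12 interferon-stimulated, GTPase, and class I genes (y axis, log scale) in each of the 13 mice, with a black bar at the group mean. For every gene shown, all 4 NPmut mice (red) lie below all 3 NrasG12D mice (blue), as for *Oas2*, at 0.509 to 2.07 against 15.6 to 29.5 CPM.

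The interferon-inducible GTPases, which attack the vacuoles of intracellular pathogens, fell as well. Of 18 tested, 10 fell and 0 rose, with a median log2 fold change of −1.39. *Iigp1* was at 9.90, 7.73, and 14.8 CPM in NrasG12D and at 1.16, 0.964, 1.29, and 0.339 CPM in NPmut mice, with no overlap (log2 fold change −3.47, SE 0.425, adjusted p = 0.000309). *Irgm1*, a regulator of the family, was at 56.5, 61.1, and 79.6 CPM in NrasG12D and at 25.1, 26.9, 33.7, and 20.4 CPM in NPmut mice, again without overlap (log2 fold change −1.31, SE 0.168, adjusted p = 0.000487). *Irgm2* (log2 fold change −1.74, adjusted p = 0.000587), *Igtp* (log2 fold change −1.18, adjusted p = 0.000570), and *Tgtp1* (log2 fold change −3.09, adjusted p = 0.000810) fell with them. *Gm4951*, a predicted member, had only 3, 7, 1, and 1 counts in NPmut against 59, 51, and 110 in NrasG12D mice (adjusted p = 5.85e-05). Of the guanylate-binding proteins, *Gbp2* fell, from 19.2, 19.6, and 19 CPM in NrasG12D to 8.14, 8.25, 8.04, and 4.58 CPM in NPmut mice (log2 fold change −1.40, SE 0.194, adjusted p = 0.000778). *Gbp7* differed by under 2-fold (log2 fold change −0.88, adjusted p = 0.000687), and *Gbp3* overlapped between the groups, at 82.3 to 104 CPM in NrasG12D and 96 to 183 CPM in NPmut mice (log2 fold change 0.35, adjusted p = 0.332). The ISRE letters were in 10 of the 12 promoter windows of this family, including both genes printed above. Of the 10 members that fell, 6 had a window, and all 6 windows held the letters. Among tested members that were not DEGs, 4 of 6 windows held them. The interferon-gamma-activated letters were in 6 of the 12 windows. Several members are near copies of each other, so that their counts may be split between them.

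Antigen presentation genes went in both directions by class. Of 16 class I and peptide-loading genes, 2 fell and 0 rose, with a median log2 fold change of −0.40. These were the nonclassical genes *H2-Q6*, at 101, 94.8, and 112 CPM in NrasG12D and 35.6, 32.3, 40.3, and 40.7 CPM in NPmut mice (log2 fold change −1.46, SE 0.124, adjusted p = 3.68e-05), and *H2-Q7*, at 60.6, 53.2, and 65.4 and 10.6, 13.7, 18.4, and 12.3 CPM (log2 fold change −2.12, SE 0.203, adjusted p = 5.26e-05). The 2 genes are near-identical copies, and their separate values are uncertain. The classical class I gene *H2-K1* was lower in every NPmut mouse by under 2-fold (log2 fold change −0.56, adjusted p = 0.0104), while *B2m*, the shared light chain, overlapped (log2 fold change −0.27, adjusted p = 0.473). Of 11 class II genes, 3 rose and 0 fell, against a background of 1.81% higher genes, with a median of 0.51. *H2-Aa*, an antigen-presenting chain, was at 7.24, 9.50, and 6.54 CPM in NrasG12D and at 27.7, 31.7, 18.7, and 8.99 CPM in NPmut mice. NPmut mouse 4 lay within the NrasG12D range (log2 fold change 1.49, SE 0.358, adjusted p = 0.0187). The chain gene *H2-Eb1* (log2 fold change 1.21, adjusted p = 0.0191) and the lysosomal thiol reductase *Ifi30* (log2 fold change 1.57, adjusted p = 0.000235) rose too, and the invariant chain *Cd74* was at 18.4 to 32.2 CPM in NrasG12D and 24.5 to 84.3 CPM in NPmut mice without passing the test (log2 fold change 1.33, adjusted p = 0.0581). *H2-Aa* lost its call without NrasG12D mouse 1 or 3 (adjusted p = 0.0826 to 0.0844), and *H2-Eb1* without NPmut mouse 1 or NrasG12D mouse 1 or 3 (adjusted p = 0.0544 to 0.0895).

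Megakaryocyte genes fell too. Of 15 tested, 11 fell and 0 rose, with a median log2 fold change of −2.35, the lowest of the lists examined. The tested member *Thbs1* went the other way in the fit, but its groups overlapped and it did not pass the test (log2 fold change 1.56, SE 1.84, adjusted p = 0.662). *Pf4* (ENSMUSG00000029373; chromosome 5, 90772435 to 90773383, plus strand), a chemokine of platelet granules, was at 32.8, 27, and 34.8 CPM in NrasG12D and at 3.34, 2.08, 5.15, and 1.02 CPM in NPmut mice. The NPmut values were all low but differed among themselves, with mouse 3 the highest and mouse 4 the lowest (log2 fold change −3.41, SE 0.355, adjusted p = 0.000149). *Cavin2*, a caveolar protein gene that is high in platelets, was at 15.6, 13.4, and 13.9 CPM in NrasG12D and at 1.42, 0.579, 2.04, and 0.0848 CPM in NPmut mice, in the same order of mice (log2 fold change −3.74, SE 0.473, adjusted p = 0.000587). *Gp1ba* (log2 fold change −3.14, adjusted p = 0.000603) and *Vwf* (log2 fold change −2.74, adjusted p = 0.000260), a platelet receptor and its ligand, and the adhesion molecule *Selp* (log2 fold change −2.35, adjusted p = 0.000260) fell as well. *Itga2b* (CD41) was at 104, 99.3, and 98.9 CPM in NrasG12D and at 18.5, 7.98, 47.3, and 14.7 CPM in NPmut mice, with mouse 3 closest to the NrasG12D values (log2 fold change −2.19, SE 0.482, adjusted p = 0.0176). It lost its call without NrasG12D mouse 1, 2, or 3 (adjusted p = 0.0508 to 0.0571).

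The GATA factors that drive these lineages were lower. *Gata2* (ENSMUSG00000015053; chromosome 6, 88193891 to 88207032, plus strand), needed for HSCs and for early megakaryocytic and mast cell progenitors, was at 244, 241, and 219 CPM in NrasG12D and at 50.5, 21.8, 86.7, and 31.9 CPM in NPmut mice. NPmut mouse 3 was the highest of the 4 and still far below every NrasG12D mouse, with a 4.91-fold difference in the fit (log2 fold change −2.30, SE 0.368, adjusted p = 0.00364). *Zfpm1* (FOG-1), the cofactor of GATA proteins, was at 269, 306, and 258 CPM in NrasG12D and at 60.2, 25.6, 123, and 115 CPM in NPmut mice (log2 fold change −1.78, SE 0.392, adjusted p = 0.0160). *Tal1*, their partner in DNA-bound complexes, was at 87.1 to 105 CPM in NrasG12D and at 20.8 to 58.1 CPM in NPmut mice, without overlap (log2 fold change −1.26, adjusted p = 0.00613). *Gata1*, the master regulator of red cells and megakaryocytes, was at 51.1, 41.4, and 34.6 CPM in NrasG12D and at 11.1, 4.36, 24.6, and 20.2 CPM in NPmut mice. All NPmut values were lower, but the test was passed narrowly (log2 fold change −1.51, SE 0.427, adjusted p = 0.0479). *Gata1* lost its call without NPmut mouse 1 or 4 or NrasG12D mouse 1, 2, or 3 (adjusted p = 0.0538 to 0.156), and *Zfpm1* without NrasG12D mouse 1 or 2 (adjusted p = 0.0507 to 0.0645). In all, 4 of 12 genes of the GATA complex fell and 0 rose, a number that was 2 without NrasG12D mouse 1 or mouse 2, with the compared groups alone, or without a filter on low counts, and the bridging factor *Lmo2* was lower by under 2-fold (log2 fold change −0.47, adjusted p = 0.0186). Among 20 erythroid genes tested, 2 fell, the lipid transporter gene *Mfsd2b* (log2 fold change −1.77, adjusted p = 0.0484) and the adhesion molecule *Icam4* (log2 fold change −1.31, adjusted p = 0.0140). *Mfsd2b* lost its call without NPmut mouse 1 or 4 or NrasG12D mouse 1, 2, or 3 (adjusted p = 0.0630 to 0.140), and *Icam4* without NrasG12D mouse 1 or 3 (adjusted p = 0.0560 to 0.0586). The erythroid factor *Klf1* did not pass the test at 73.9, 76.8, and 61.3 CPM in NrasG12D and 18.7, 8.29, 31, and 50.1 CPM in NPmut mice (log2 fold change −1.41, adjusted p = 0.0730). Not all erythroid genes were lower. At low counts, *Hba-a1* (log2 fold change 2.11, adjusted p = 0.124), *Alas2* (1.79, adjusted p = 0.0855), and *Slc4a1* (1.75, adjusted p = 0.101) were higher in the fit. All 3 overlapped between the groups and did not pass the test. With DESeq2, 3 erythroid genes were called higher and 3 lower. The erythroid list had a median of −0.70 in the main fit. By mouse, relative to the NrasG12D mean, its medians were −1.36, −2.38, −0.11, and 0.29 in NPmut mice 1 to 4.

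Genes of HSCs fell as well. Of 21 tested, 14 fell and 0 rose, with a median of −1.67. *Tek* (TIE2), the angiopoietin receptor of quiescent HSCs, was at 8.91, 11.6, and 8.74 CPM in NrasG12D and at 0.960, 0.694, 1.61, and 0 CPM in NPmut mice, with no count at all in mouse 4 (log2 fold change −3.50, SE 0.498, adjusted p = 0.00117). Its relative *Tie1* was at 14.7, 17.9, and 15.9 CPM in NrasG12D and at 3.13, 1.27, 2.09, and 2.04 CPM in NPmut mice (log2 fold change −2.93, SE 0.273, adjusted p = 5.20e-05). *Slamf1* (CD150), a surface marker of HSCs, had 139, 53, and 87 counts in NrasG12D and 19, 7, 13, and 1 counts in NPmut mice (adjusted p = 0.00176). Transcription factors of the stem cell program were also lower. *Meis1* was at 105, 108, and 101 CPM in NrasG12D and at 38.4, 16.4, 47.7, and 26.5 CPM in NPmut mice (log2 fold change −1.70, SE 0.298, adjusted p = 0.00472). *Mecom* (log2 fold change −1.52, adjusted p = 0.0223) and *Hlf* (log2 fold change −1.43, adjusted p = 0.0247) fell too. *Mecom* lost its call without NrasG12D mouse 1 or 3 (adjusted p = 0.0639 to 0.102), and *Hlf* without NPmut mouse 4 or NrasG12D mouse 1, 2, or 3 (adjusted p = 0.0598 to 0.0937). NPmut mouse 2 had the lowest and mouse 3 the highest HSC median of the 4 (−2.57 and −1.13).

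Of 9 mast cell and basophil genes tested, 5 fell and 0 rose, with a median of −1.88, and 2 fell with the compared groups alone. Only 2 of them fell without NrasG12D mouse 2. *Slc18a2*, the transporter that loads histamine into granules, was at 27.5, 24.8, and 26.2 CPM in NrasG12D and at 3.34, 1.35, 7.02, and 1.02 CPM in NPmut mice (log2 fold change −3.02, SE 0.517, adjusted p = 0.00478). *Il1rl1*, the IL-33 receptor, was at 44, 58.6, and 46 CPM in NrasG12D and at 9.35, 3.82, 21.4, and 13.7 CPM in NPmut mice, mouse 3 again being the highest (log2 fold change −2.05, SE 0.405, adjusted p = 0.00911). The IgE receptor chain *Ms4a2* fell (log2 fold change −2.17, adjusted p = 0.0106), and so did the basophil protease *Prss34* (log2 fold change −1.72, adjusted p = 0.0393). The partner chain *Fcer1a* had 4, 0, 2, and 0 counts in NPmut against 11, 24, and 11 in NrasG12D mice (adjusted p = 0.00903). Calls were lost for *Prss34* without NPmut mouse 2 or 4 or NrasG12D mouse 1, 2, or 3 (adjusted p = 0.0581 to 0.159), for *Ms4a2* without NrasG12D mouse 2 (adjusted p = 0.0543), and for *Fcer1a* without NrasG12D mouse 2 (adjusted p = 0.0577). The mast cell protease gene *Cpa3* was at 39.8 to 53.9 CPM in NrasG12D and 9.18 to 36.1 CPM in NPmut mice and did not pass the test (log2 fold change −1.31, adjusted p = 0.0957). Not all members were lower. The basophil protease gene *Mcpt8* was at 6.37 CPM or less in NrasG12D and at 7.06 CPM or more in NPmut mice. It was higher in every NPmut mouse without passing the test (log2 fold change 0.58, adjusted p = 0.13).

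**Figure D3:**
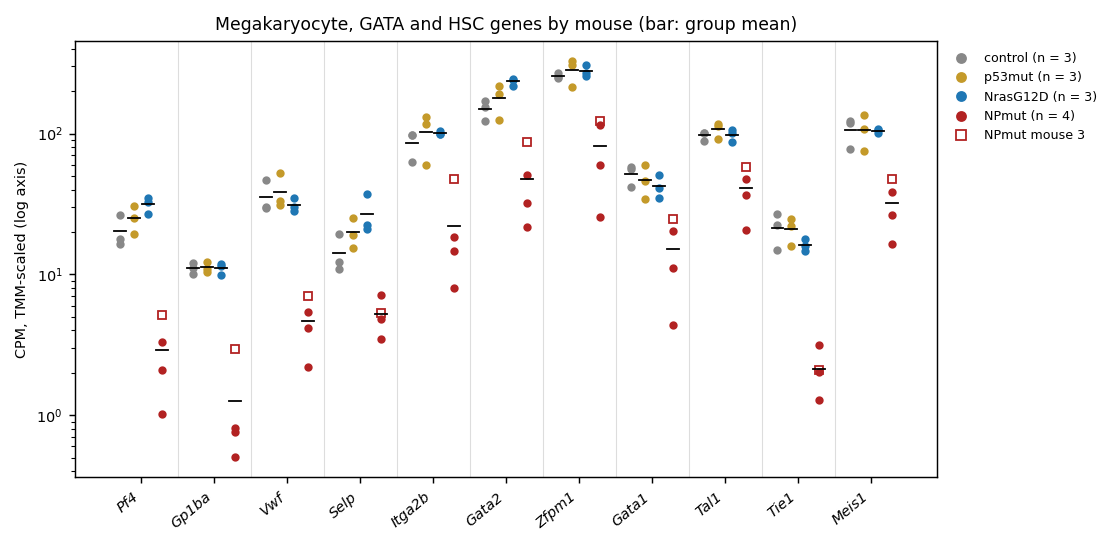
CPM of 11 megakaryocyte, GATA complex, and HSC genes (y axis, log scale) in each of the 13 mice, with a black bar at the group mean and NPmut mouse 3 as an open square. All 4 NPmut mice lie below all 3 NrasG12D mice for each gene, as for *Gata2*, at 21.8 to 86.7 against 219 to 244 CPM.

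Monocyte genes moved the other way. Of 22 monocyte and macrophage genes tested, 14 rose and 1 fell, with a median log2 fold change of 1.46. *Irf8* (ENSMUSG00000041515; chromosome 8, 120736358 to 120756694, plus strand), the factor that commits progenitors to monocytes and dendritic cells, was at 143, 196, and 202 CPM in NrasG12D and at 489.7, 616, 390.2, and 445 CPM in NPmut mice. The lowest NPmut mouse was well above the highest NrasG12D mouse, 2.69-fold in the fit (log2 fold change 1.43, SE 0.227, adjusted p = 0.00229). *F13a1*, a transglutaminase gene of monocyte progenitors, was at 229, 348, and 397 CPM in NrasG12D and at 1011, 1188, 1027, and 903 CPM in NPmut mice (log2 fold change 1.67, SE 0.228, adjusted p = 0.000788). *Cybb*, the catalytic subunit of the phagocyte oxidase, was at 27, 24.5, and 46.6 CPM in NrasG12D and at 149, 157, 82.3, and 124 CPM in NPmut mice, mouse 3 being the lowest of the 4 (log2 fold change 1.97, SE 0.291, adjusted p = 0.00176). *Irf5*, a transcription factor of inflammatory cytokine genes, was at 14.1, 14.1, and 14.3 CPM in NrasG12D and at 43.7, 63.7, 39.8, and 41.4 CPM in NPmut mice, without overlap (log2 fold change 1.73, SE 0.224, adjusted p = 0.000506). The chemokine receptor *Ccr2* (log2 fold change 1.47, adjusted p = 0.00353), the lysosomal protease *Ctss* (log2 fold change 1.60, adjusted p = 0.00351), and the lectin *Lgals3* (log2 fold change 3.05, adjusted p = 0.00560) rose, with every NPmut mouse above every NrasG12D mouse. The M-CSF receptor *Csf1r* was at 58.3, 71.2, and 79.1 CPM in NrasG12D and at 180.1, 184, 129, and 121 CPM in NPmut mice (log2 fold change 1.14, SE 0.247, adjusted p = 0.0117). Its call was lost without NPmut mouse 2 or NrasG12D mouse 1 (adjusted p = 0.0503 to 0.0666). *Klf4*, a factor of monocyte differentiation, was at 2.32, 3.80, and 6.02 CPM in NrasG12D and at 44.4, 50.4, 20.9, and 50 CPM in NPmut mice (log2 fold change 3.36, SE 0.615, adjusted p = 0.00660). The exception was *Apoe*, a lipoprotein of macrophages that other cells make too, at 340.1, 462, and 275 CPM in NrasG12D and 48.1, 28.1, 69.1, and 36.6 CPM in NPmut mice (log2 fold change −2.98, SE 0.275, adjusted p = 6.61e-05). The myeloid master factor *Spi1* (PU.1) was higher in all 4 NPmut mice without passing the test (log2 fold change 0.67, adjusted p = 0.0547).

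Of 18 neutrophil and granulocyte-monocyte progenitor genes, 2 rose, the collagenase *Mmp8* (log2 fold change 1.34, adjusted p = 0.0360) and the ficolin *Fcnb*, which was at 0.983 to 4.40 CPM in NrasG12D and 3.49 to 33.5 CPM in NPmut mice and overlapped (adjusted p = 0.0463). *Mmp8* lost its call without NPmut mouse 1 or 2 or NrasG12D mouse 1, 2, or 3 (adjusted p = 0.0578 to 0.138), and *Fcnb* without NPmut mouse 2 or 4 or NrasG12D mouse 1, 2, or 3 (adjusted p = 0.0594 to 0.167). The granule enzymes *Mpo* (log2 fold change 0.40, adjusted p = 0.337) and *Elane* (log2 fold change 0.82, adjusted p = 0.164) did not pass, and *Ctsg* differed by under 2-fold (log2 fold change 0.73, adjusted p = 0.0469). Of 8 dendritic cell genes tested, 3 rose. These were *Clec9a*, a receptor of cross-presenting cells (log2 fold change 2.14, adjusted p = 0.0152), the integrin *Itgax* (log2 fold change 2.04, adjusted p = 0.0274), and the inhibitor of DNA binding *Id2*, at 4.11, 6.16, and 5.70 CPM in NrasG12D and 13.6, 19.4, 16.7, and 8.48 CPM in NPmut mice (log2 fold change 1.45, SE 0.308, adjusted p = 0.00932). Calls were lost for *Clec9a* without NrasG12D mouse 1 or 2 (adjusted p = 0.0561 to 0.0787), for *Itgax* without NPmut mouse 1 or NrasG12D mouse 2 or 3 (adjusted p = 0.0664 to 0.122), and for *Id2* without NrasG12D mouse 1 (adjusted p = 0.0592). Summed over the 12 listed dendritic cell genes, CPM overlapped, at 103 to 126 in NrasG12D and 104 to 149 in NPmut mice. The list's median was 1.57. With at least 10 counts required in every library, 3 members were tested and 1 rose, with a median of −0.18.

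Immediate-early genes are switched on within minutes of ERK, stress, or NF-κB signals, and many encode AP-1 and related transcription factors. Of 24 tested, 15 rose and 0 fell, with a median of 1.63. *Nr4a1*, an orphan nuclear receptor, was at 4.17, 3.28, and 2.40 CPM in NrasG12D and at 198, 90.3, 6.27, and 125 CPM in NPmut mice. Mice 1, 2, and 4 were far higher, and mouse 3 lay just above the NrasG12D range (log2 fold change 4.99, SE 1.04, adjusted p = 0.0165). *Fos* (ENSMUSG00000021250; chromosome 12, 85473890 to 85477273, plus strand), a subunit of AP-1, was at 9.15, 14.4, and 7.51 CPM in NrasG12D and at 186, 218, 14.6, and 392 CPM in NPmut mice, with mouse 3 again beside the NrasG12D values (log2 fold change 4.29, SE 0.995, adjusted p = 0.0259). *Klf2* repeated the pattern, at 2.14, 4.91, and 3.82 CPM in NrasG12D and 21, 29.1, 6.27, and 50.7 CPM in NPmut mice (log2 fold change 2.88, SE 0.678, adjusted p = 0.0217). *Junb* (log2 fold change 1.28, adjusted p = 0.0109), *Ier2* (log2 fold change 1.17, adjusted p = 0.00601), and *Ier3* (log2 fold change 1.38, adjusted p = 0.0240) also rose. *Egr3* had 1, 0, and 1 counts in NrasG12D and 322, 106, 5, and 118 counts in NPmut mice (adjusted p = 0.00609). *Jun* (log2 fold change 1.28, adjusted p = 0.110), *Egr1* (log2 fold change 1.63, adjusted p = 0.127), and the ERK phosphatase *Dusp1* (log2 fold change 1.50, adjusted p = 0.0851) overlapped and did not pass.

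The number of immediate-early genes that rose depended on the setting and on single mice. With all mice kept it was 6 with the compared groups alone, 7 with the replicate block, which adds the replicate number as a term, and 7 without a filter on low counts, with medians of 1.62, 1.31, and 1.62. Relative to the NrasG12D mean, the list's median was 2.15, 1.48, 0.03, and 2.32 in NPmut mice 1 to 4. Without NPmut mouse 3, 21 of the 24 genes rose. Without NPmut mice 1, 2, or 4, the numbers were 10, 7, and 9, and without NrasG12D mice 1, 2, or 3 they were 3, 4, and 4. The medians under these 7 settings stayed between 1.43 and 1.94. In p53mut mouse 2, which has no mutant *Nras* allele, the median was 0.59, against −0.15 and −0.16 in the other p53mut mice. By gene, *Nr4a1* lost its call without NrasG12D mouse 1, 2, or 3 (adjusted p = 0.0700 to 0.0778), *Fos* without NPmut mouse 2 or NrasG12D mouse 1, 2, or 3 (adjusted p = 0.0533 to 0.108), *Klf2* without NPmut mouse 2 or NrasG12D mouse 1, 2, or 3 (adjusted p = 0.0609 to 0.101), *Junb* without NrasG12D mouse 1 or 3 (adjusted p = 0.0542 to 0.0546), and *Ier3* without NrasG12D mouse 1, 2, or 3 (adjusted p = 0.0575 to 0.109). *Ier2* changed by just under 2-fold without NPmut mouse 4.

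NF-κB dimers are held in the cytoplasm by IκB proteins, whose genes are themselves NF-κB targets, so that feedback inhibitors rise when the pathway is active. Of 17 subunit, kinase, and inhibitor genes, 4 rose and 0 fell, with a median of 0.39, and the 4 that rose were inhibitors or atypical IκB proteins. With the compared groups alone, 1 rose. *Nfkbia* (ENSMUSG00000021025; chromosome 12, 55489410 to 55492647, minus strand), which encodes IκBα, was at 19.3, 24, and 16.8 CPM in NrasG12D and at 57.6, 74.7, 43.3, and 67.3 CPM in NPmut mice. All 4 NPmut mice, mouse 3 included, were above every NrasG12D mouse (log2 fold change 1.60, SE 0.192, adjusted p = 0.000260). *Nfkbiz* was at 8.97, 8.12, and 7.70 CPM in NrasG12D and at 49.9, 19.9, 12.4, and 61.8 CPM in NPmut mice (log2 fold change 2.11, SE 0.440, adjusted p = 0.0107). *Nfkbid* (log2 fold change 1.64, adjusted p = 0.0197) and the ubiquitin-editing inhibitor *Tnfaip3* (A20; log2 fold change 1.77, adjusted p = 0.0319) rose too, but in both NPmut mouse 3 lay within the NrasG12D range. Calls were lost for *Nfkbid* without NrasG12D mouse 1, 2, or 3 (adjusted p = 0.0619 to 0.0904), for *Tnfaip3* without NPmut mouse 1, 2, or 4 or NrasG12D mouse 1, 2, or 3 (adjusted p = 0.0528 to 0.127), and for *Nfkbiz* without NrasG12D mouse 2 (adjusted p = 0.0534). The subunit genes *Rela* (log2 fold change −0.13, adjusted p = 0.417) and *Nfkb1* (log2 fold change 0.15, adjusted p = 0.405) overlapped between the groups. To show the NF-κB letters GGGANNTTCC in genes that rose, the stretches that hold them are printed, with matches on either strand in capitals.
Nfkbia, chr12:55492648-55492701, minus strand: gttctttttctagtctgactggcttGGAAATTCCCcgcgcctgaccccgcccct
Cxcl2, chr5:90903777-90903837, plus strand: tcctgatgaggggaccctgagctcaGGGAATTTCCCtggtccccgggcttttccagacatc
In *Cxcl2* there are 2 overlapping matches, 1 on each strand. These letters were in 1.47% of all promoter windows, in 4 of 21 windows of the NF-κB list, and in 2 of 17 windows of the cytokine list. Of the NF-κB list, 3 of the 4 windows with these letters were among the 15 of members that were not DEGs, whereas of the cytokine list 0 of 10 such windows held them.

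Of 17 inflammasome, cytokine, and chemokine genes tested, 5 rose and 0 fell, with a median of 0.65, and 3 rose when any 1 of the NrasG12D mice was left out. *Tnf*, a central inflammatory cytokine, was at 3.94, 2.62, and 3.56 CPM in NrasG12D and at 21.6, 16.6, 5.63, and 17.8 CPM in NPmut mice, with mouse 3 lowest but above all NrasG12D mice (log2 fold change 2.19, SE 0.376, adjusted p = 0.00335). The chemokine *Ccl3* was at 0.637, 1.05, and 0.583 CPM in NrasG12D and at 10.3, 15.9, 1.07, and 17.8 CPM in NPmut mice, where mouse 3 was level with the highest NrasG12D mouse (log2 fold change 3.88, SE 0.751, adjusted p = 0.00676). *Ccl6*, a chemokine of myeloid cells, rose as well (log2 fold change 1.58, adjusted p = 0.00672). *Il1b* was at 0.405, 0.131, and 0.388 CPM in NrasG12D and at 5.91, 6.86, 0.214, and 4.07 CPM in NPmut mice, mouse 3 being within the NrasG12D range (log2 fold change 3.75, SE 0.879, adjusted p = 0.0170). *Cxcl2*, a neutrophil attractant, had no count in any NrasG12D mouse and 46, 62, 0, and 35 counts in NPmut mice (adjusted p = 0.0167). The inflammasome sensor *Nlrp3* was at 6.89, 3.47, and 2.52 CPM in NrasG12D and at 53.9, 29.5, 11.2, and 55.6 CPM in NPmut mice and did not pass the test (log2 fold change 3.11, adjusted p = 0.0574). *Il1b* lost its call without NrasG12D mouse 1, 2, or 3 (adjusted p = 0.0594 to 0.0830), and *Cxcl2* without NrasG12D mouse 1, 2, or 3 (adjusted p = 0.0531 to 0.0630).

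Toll-like receptors recognise microbial molecules and nucleic acids. Of 25 receptor and adaptor genes tested, 7 rose and 0 fell, with a median of 0.49. *Unc93b1*, the chaperone that carries nucleic acid-sensing receptors to endosomes, was at 116, 135, and 140.1 CPM in NrasG12D and at 315, 447, 288, and 281 CPM in NPmut mice (log2 fold change 1.35, SE 0.200, adjusted p = 0.00143). *Ly86* (MD-1), a helper of the receptor RP105, was at 18.8, 22.4, and 30.9 CPM in NrasG12D and at 72.2, 129.5, 70.5, and 49 CPM in NPmut mice (log2 fold change 1.74, SE 0.330, adjusted p = 0.00651). *Tlr2* (log2 fold change 1.85, adjusted p = 0.0117), *Tlr8* (log2 fold change 2.39, adjusted p = 0.0227), and *Tlr13* (log2 fold change 1.92, adjusted p = 0.0140) rose, and *Cd14*, the coreceptor for bacterial lipids, was at 1.27, 0.524, and 0.647 CPM in NrasG12D and 15.5, 21.2, 0.590, and 8.06 CPM in NPmut mice, where mouse 3 lay within the NrasG12D range (log2 fold change 3.78, SE 0.926, adjusted p = 0.0246). The number of members that rose was 2 without NrasG12D mouse 1 or mouse 2 and 4 without mouse 3. By gene, *Cd14* lost its call without NPmut mouse 2 or NrasG12D mouse 1, 2, or 3 (adjusted p = 0.0622 to 0.116), *Tlr2* without NrasG12D mouse 1 or 2 (adjusted p = 0.0591 to 0.0670), *Tlr8* without NPmut mouse 1 or NrasG12D mouse 1 or 2 (adjusted p = 0.0534 to 0.108), and *Tlr13* without NrasG12D mouse 1, 2, or 3 (adjusted p = 0.0513 to 0.0645). *Tlr1* (log2 fold change 1.42, adjusted p = 0.0795) and *Tlr4* (log2 fold change −0.24, adjusted p = 0.516) did not pass the test.

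**Figure D4:**
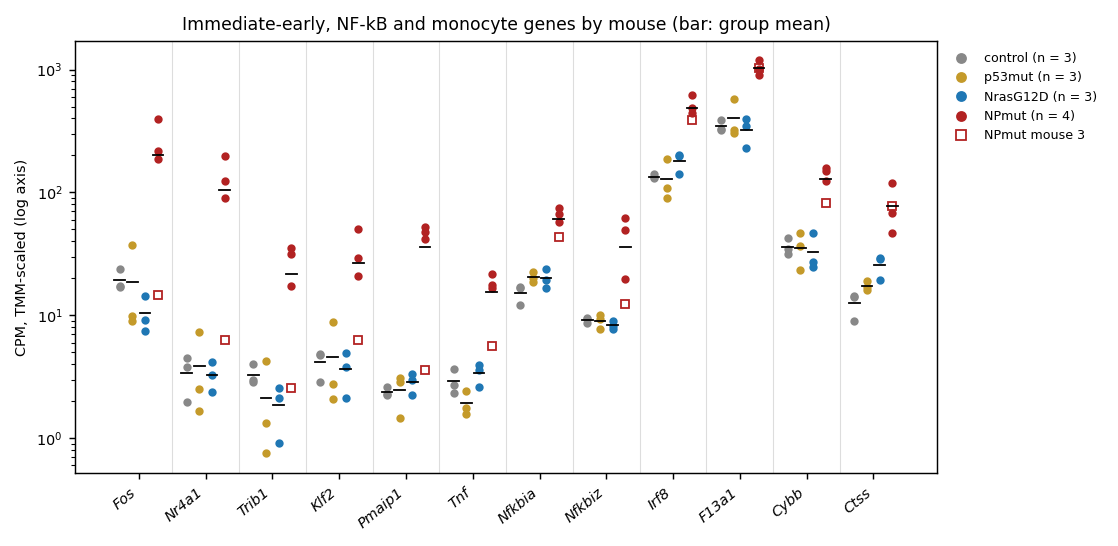
CPM of 12 genes that rose, from the immediate-early, NF-κB, cytokine, p53 target, and monocyte lists or from none (y axis, log scale), in each of the 13 mice, with a black bar at the group mean and NPmut mouse 3 as an open square. NPmut mouse 3 lies beside NrasG12D mice for *Fos* (14.6 against 7.51 to 14.4 CPM) but with the other NPmut mice for *Irf8* and *F13a1*.

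Few regulators of Ras differed by 2-fold. Of 26 tested, *Nras* included, 2 rose and 1 fell, with a median of −0.02. *Rasa4*, a GTPase-activating protein that switches Ras off, was at 79.1, 68.1, and 72.6 CPM in NrasG12D and at 152, 166, 129, and 161 CPM in NPmut mice. The values did not overlap, and the change was just over 2-fold (log2 fold change 1.05, SE 0.162, adjusted p = 0.00166), or just under it with library totals (log2 fold change 0.97, adjusted p = 0.00253). *Rasgrp4*, an exchange factor that switches Ras on, was at 0.868, 0.917, and 1.68 CPM in NrasG12D and at 4.55, 4.24, 3.11, and 3.65 CPM in NPmut mice (log2 fold change 1.75, SE 0.357, adjusted p = 0.00775). *Dab2ip*, a second GTPase-activating protein, fell from 30.4, 44.6, and 34 CPM in NrasG12D to 15.3, 7.79, 17.9, and 12.1 CPM in NPmut mice (log2 fold change −1.45, SE 0.240, adjusted p = 0.00271). The exchange factor *Sos1* was lower (log2 fold change −0.67, adjusted p = 0.00525) and *Rasgrp2* higher (log2 fold change 0.48, adjusted p = 0.0200), both by under 2-fold and without overlap. *Rasgrp4* lost its call without NrasG12D mouse 1 (adjusted p = 0.0507).

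Of 22 ERK feedback and output genes tested, 3 rose, *Dusp5*, *Epha2*, and *Ier3*, and 0 fell, with a median of 0.38. *Dusp5*, a nuclear ERK phosphatase, was at 7.12, 11.3, and 6.47 CPM in NrasG12D and at 68.3, 36.8, 8.42, and 41.8 CPM in NPmut mice, with mouse 3 within the NrasG12D range (log2 fold change 2.23, SE 0.530, adjusted p = 0.0225). *Dusp6*, the cytoplasmic ERK phosphatase, was at 39.3, 47.8, and 41.4 CPM in NrasG12D and at 35.3, 25.4, 50.2, and 32.3 CPM in NPmut mice and overlapped (log2 fold change −0.26, adjusted p = 0.431). *Myc* was lower in every NPmut mouse by under 2-fold (log2 fold change −0.57, adjusted p = 0.00428), and the receptor tyrosine kinase *Epha2* rose from 0.579, 1.18, and 0.971 to 3.39, 3.66, 3.43, and 2.29 CPM (log2 fold change 1.82, SE 0.411, adjusted p = 0.0134). Without NrasG12D mouse 1, 0 of these genes rose, without mouse 2 or mouse 3, 1 rose, and without NPmut mouse 3, 8 rose and 2 fell. With the compared groups alone, 1 rose. *Dusp5* lost its call without NPmut mouse 2 or NrasG12D mouse 1, 2, or 3 (adjusted p = 0.0577 to 0.103), *Epha2* without NrasG12D mouse 1 (adjusted p = 0.0770), and *Ier3* without NrasG12D mouse 1, 2, or 3 (adjusted p = 0.0575 to 0.109).

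Among 21 growth factor and cytokine receptors tested, *Csf1r* rose and *Tek* fell, and the median was 0.01. The IL-6 signalling chains were higher by under 2-fold, *Il6ra* at 74, 84, and 79.6 CPM in NrasG12D and 144, 106, 122, and 121 CPM in NPmut mice (log2 fold change 0.64, adjusted p = 0.0227) and *Il6st* at 84.8, 115, and 99.3 and 233, 173, 179, and 167 CPM (log2 fold change 0.91, adjusted p = 0.00428). The common beta chain *Csf2rb*, which serves IL-3 and GM-CSF, was higher without overlap (log2 fold change 0.76, adjusted p = 0.00631). *Flt3*, a receptor of multipotent and myeloid progenitors, was at 151, 198, and 127 CPM in NrasG12D and at 163, 109, 252, and 112 CPM in NPmut mice, and no difference was detectable (log2 fold change 0.01, SE 0.302, adjusted p = 0.994). *Met* (log2 fold change 0.96, adjusted p = 0.0949) and *Ptk7* (log2 fold change 0.81, adjusted p = 0.0676) did not pass the test.

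Of 32 p53 targets tested, *Trp53* included, 1 rose and 5 fell, with a median of −0.10 and NPmut mouse medians of −0.08, −0.14, −0.22, and 0.07. *Pmaip1* (NOXA), a BH3-only inducer of apoptosis, was at 2.95, 3.34, and 2.27 CPM in NrasG12D and at 47.5, 52.2, 3.59, and 42 CPM in NPmut mice. Mouse 3 lay just above the NrasG12D range and the other 3 mice were far higher (log2 fold change 3.67, SE 0.702, adjusted p = 0.00815). *Ptpn14*, a phosphatase that p53 induces, was at 15.4, 15.7, and 15 CPM in NrasG12D and at 3.89, 1.31, 2.47, and 0.679 CPM in NPmut mice (log2 fold change −2.84, SE 0.407, adjusted p = 0.00126). *Zmat3*, an RNA-binding protein, was at 10.9, 8.39, and 7.51 CPM in NrasG12D and at 2.27, 1.12, 3.32, and 2.04 CPM in NPmut mice (log2 fold change −2.04, SE 0.366, adjusted p = 0.00414). *Trp53inp1*, a stress-induced partner of p53, fell without overlap (log2 fold change −1.27, adjusted p = 0.00399), and *Phlda3*, an inhibitor of AKT, fell at low counts (log2 fold change −1.69, adjusted p = 0.0344). The receptor *Eda2r* had 14, 21, and 12 counts in NrasG12D and 0, 1, 0, and 0 in NPmut mice (adjusted p = 0.00627). *Phlda3* lost its call without NPmut mouse 1, 2, or 4 or NrasG12D mouse 1, 2, or 3 (adjusted p = 0.0598 to 0.105). Without NPmut mouse 3, 5 genes of the list rose and 5 fell. Unlike *Pmaip1*, the well-known targets *Cdkn1a*, *Mdm2*, *Bax*, and *Bbc3* were not among the DEGs. *Cdkn1a* (p21) was at 3.30, 4.91, and 5.50 CPM in NrasG12D and at 14.8, 10.2, 5.31, and 13.1 CPM in NPmut mice (log2 fold change 1.24, adjusted p = 0.0513). *Mdm2* (log2 fold change 0.21, adjusted p = 0.404), *Bax* (log2 fold change 0.23, adjusted p = 0.467), and *Bbc3* (PUMA; log2 fold change −0.95, adjusted p = 0.126) did not pass, *Ccng1* was lower by under 2-fold (log2 fold change −0.48, adjusted p = 0.0424), and *Tigar* was higher with a change just under 2-fold (log2 fold change 1.00, adjusted p = 0.0167).

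Of 13 BCL-2 family genes tested, *Pmaip1* rose and 0 fell, and *Mcl1*, the antiapoptotic partner of NOXA, was higher by under 2-fold, at 152, 142, and 135 CPM in NrasG12D and 226, 225, 161, and 214 CPM in NPmut mice (log2 fold change 0.53, adjusted p = 0.0121). Of 25 proliferation genes, 0 were DEGs and 1 passed the adjusted p-value alone, the transcription factor *E2f1*, at 39.7, 34.1, and 39.7 CPM in NrasG12D and 53.9, 59.9, 52.3, and 52.8 CPM in NPmut mice (log2 fold change 0.53, adjusted p = 0.0107). The median of the proliferation list was 0.11, against 0.04 for all genes.

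**Figure D5:**
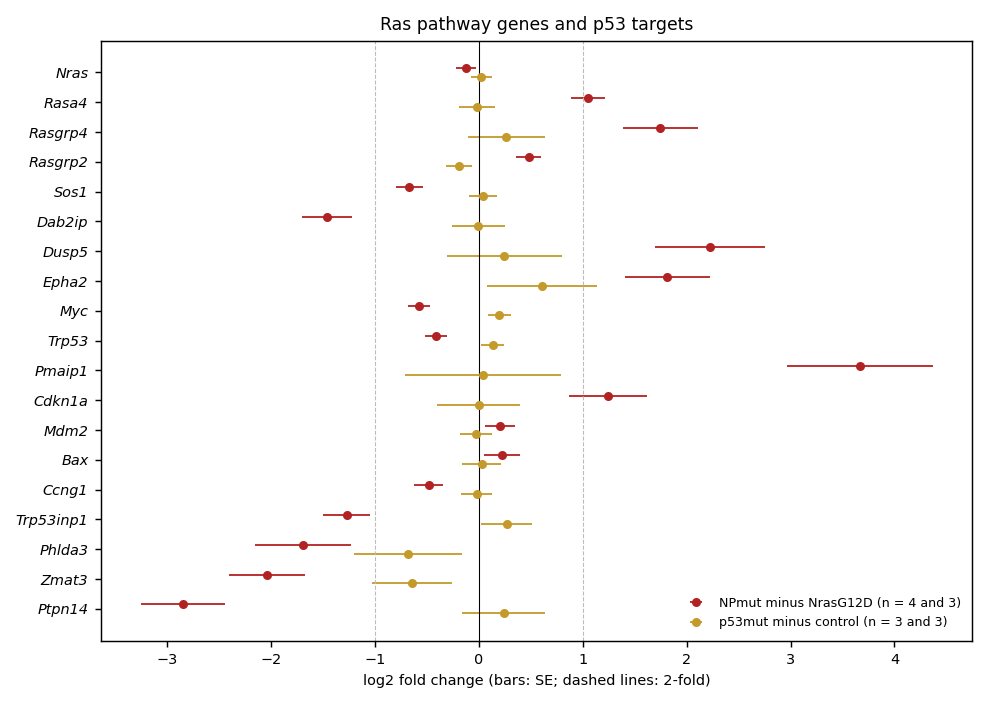
Log2 fold changes with SE bars (x axis) of 19 Ras pathway genes and p53 targets (y axis) for NPmut minus NrasG12D (red, n = 4 and 3) and for p53mut minus control (yellow, n = 3 and 3), with dashed lines at 2-fold. *Pmaip1* lies at 3.67 and 0.04 and *Ptpn14* at −2.84 and 0.24, while *Nras* lies near 0 in both.

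The effect of mutant p53 without mutant Nras was measured between p53mut and control mice. The main comparison does not contrast these mice, but they enter the same fit, so the 2 comparisons are not fully separate. Without 1 control or p53mut mouse, the DEGs of the main comparison numbered 713 to 759, against 785 with every mouse. Between p53mut and control HSPCs, 0 of 17795 genes were DEGs by edgeR, with 415 at an unadjusted p-value under 0.05, and DESeq2 called 1 higher and 2 lower. With p53mut and control mice fitted alone, 946 genes were at an unadjusted p-value under 0.05 and 1 was a DEG. The fit of all 13 libraries includes the NPmut mice, whose median SD was 0.35, against 0.20 in control and 0.22 in p53mut mice. The absence of DEGs in it therefore does not show the absence of an effect. The 322 genes that rose in NPmut mice had a median log2 fold change of −0.03 between p53mut and control mice, and the 463 that fell had 0.07. By mouse, the medians relative to the control mean were −0.20, 0.31, and −0.25 over the rising genes and 0.12, −0.25, and 0.31 over the falling genes in p53mut mice 1 to 3. For *Oas2* the log2 fold change was −0.34 (SE 0.339, adjusted p = 1.00) between p53mut and control, for *Gata2* 0.26 (SE 0.387, adjusted p = 1.00), for *Irf8* −0.06 (SE 0.234, adjusted p = 1.00), and for *Nfkbia* 0.43 (SE 0.201, adjusted p = 1.00).

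The interaction term, NPmut minus NrasG12D less p53mut minus control, tests the difference between these effects. It was positive past the same thresholds for 72 genes (0.405%) and negative for 167 (0.938%). Of the DEGs, 56 of the 322 rising genes and 138 of the 463 falling genes had such a term in the same direction and 0 in the opposite one. NPmut and NrasG12D mice enter both tests, so that this overlap describes the DEGs and is no independent support. Of the lists, interferon-stimulated genes had 12 negative terms among 29, GTPases 8 among 18, megakaryocyte genes 8 among 15, HSC genes 4 among 21, and monocyte genes 5 positive and 1 negative among 22, but immediate-early genes had 0 among 24. Among DEGs without overlap whose mean log2 CPM reached 1, the terms of largest size were negative for *Iigp1* (−4.08, adjusted p = 0.00568), *Cavin2* (−3.97, adjusted p = 0.0109), and *Tek* (−3.84, adjusted p = 0.0180) and positive for *Hopx* (3.66, adjusted p = 0.0183), *Glt1d1* (3.56, adjusted p = 0.0313), and *I830127L07Rik* (3.40, adjusted p = 0.00842). Terms also passed for *Gata2* (−2.55, adjusted p = 0.0387), *Irf8* (1.49, adjusted p = 0.0376), *Tnf* (2.78, adjusted p = 0.0247), *Nfkbia* (1.17, adjusted p = 0.0464), and *Rasa4* (1.07, adjusted p = 0.0376), and not for *Gata1* (−1.37, adjusted p = 0.306), *Fos* (4.36, adjusted p = 0.137), *Nr4a1* (4.84, adjusted p = 0.130), *Pmaip1* (3.62, adjusted p = 0.0932), or *Trp53* (−0.54, adjusted p = 0.0863). The number of positive terms moved by over 1.5 times without any 1 of 12 mice, NPmut mouse 2 being the exception, from 6 without control mouse 2 to 204 without NPmut mouse 3. Negative terms ran from 55 to 327 without the same mice.

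A few of the largest changes belonged to none of the lists. *Hopx*, a homeodomain-only cofactor, was at 0.579, 0.786, and 0.583 CPM in NrasG12D and at 4.25, 6.32, 5.85, and 5 CPM in NPmut mice, raised in all 4 by a like amount (log2 fold change 3.03, SE 0.474, adjusted p = 0.00177). *Tmem178*, a membrane protein gene, was at 0.521, 0.655, and 0.583 CPM in NrasG12D and at 4.85, 7.64, 3.65, and 2.63 CPM in NPmut mice (log2 fold change 3.00, SE 0.548, adjusted p = 0.00432). *Trib1*, a pseudokinase that directs C/EBPα to degradation, was at 2.14, 2.56, and 0.906 CPM in NrasG12D and at 31.8, 17.2, 2.57, and 35.2 CPM in NPmut mice, with mouse 3 level with NrasG12D (log2 fold change 3.53, SE 0.817, adjusted p = 0.0203). It lost its call without NrasG12D mouse 1, 2, or 3 (adjusted p = 0.0690 to 0.0858). *Glt1d1*, a glycosyltransferase-like gene, rose (log2 fold change 2.68, adjusted p = 0.00626). *I830127L07Rik*, annotated as a transcribed pseudogene, was at 2.78, 2.88, and 3.88 CPM in NrasG12D and at 21, 45.5, 18, and 27.6 CPM in NPmut mice (log2 fold change 3.14, SE 0.386, adjusted p = 0.000409), but its reads may be shared with its parent gene. *Gm17590*, annotated as an antisense RNA, fell (log2 fold change −3.63, adjusted p = 0.000603), and whether its reads come from its own strand is unknown here.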

How the data were processed

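Lin- cKit+ BM cells of 13 mice were profiled by RNA-Seq. The deposited table holds raw counts per gene for 54838 Ensembl genes and 13 libraries, made by the authors with no normalization. The submitters' processing notes name STAR 2.6.1d, R 3.6.1, DESeq2 1.26.0, and GRCm38.p6, while the counting program, its use of strand, and the annotation release are not given in the sources used here. Symbols and positions were taken from GENCODE vM21 (GRCm38). Groups follow the genotype labels, and each library is a separate mouse.

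Genes were filtered with filterByExpr over the 4 groups, leaving 17795, scaled by TMM, and fitted in all 13 libraries with edgeR 4.0.16 (robust quasi-likelihood, R 4.3.3), with Benjamini-Hochberg adjustment over all genes tested. SEs are the absolute log2 fold change divided by the square root of F. Log2 CPM used a prior count of 2. In counts simulated on 17361 genes for NPmut against NrasG12D, 79% of the 4-fold changes were called as DEGs, 49% of the 2-fold changes passed the adjusted p-value, and 2 unchanged genes were called. For the interaction the same values were 64%, 21%, and 7. The simulation gave every group the same spread for a gene and drew each mouse independently. In the data NPmut mice differed more among themselves (median SD 0.35, against 0.21 in NrasG12D mice). The simulated rates therefore need not hold for these libraries. The members and 28 gene lists were chosen with earlier results of these data known.

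Named genes were the 10 DEGs of largest change in each direction whose groups did not overlap and whose mean log2 CPM reached 1. Also named were the 3 genes in each direction with the largest called interaction under the same conditions, and members of the lists. Genes outside this rule, among them those named for a count of 5 or fewer, were chosen after their values were seen. Some list members are not reported here by name. Alternatives tried were library totals, RLE factors, DESeq2 1.42.0, filters on low counts, the compared groups alone, sex as a term, a replicate block, and leaving out each mouse. Intervals of counts and depth cover counting error only, and totals per library of 12576174 or more put 1 count below 0.1 CPM.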

Additional observations from a re-analysis of the deposited data

Results flagged for a closer look

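Of the named genes, 152 were checked for single mice that lay apart. In 14 of these, 1 of the 4 NPmut mice lay apart from the other 3 by a gap past the 95% limit of Dixon's test. Chance alone sets about 1 in 20 groups apart in this way. NPmut mouse 3 was the mouse concerned in 7 of them. It was low for *Klf4* (gap over range 0.857), *Il1b* (0.832), *Cxcl2* (0.928), *Junb* (0.871), *Pmaip1* (0.918), and *Mcl1* (0.831) and high for *Ptk7* (0.841). NPmut mouse 2 was high for *H2-K1* (0.856), *Ifi30* (0.840), *Tigar* (0.854), and *Eda2r* (1.00, from 1 count against 0 in the other 3). NPmut mouse 4 was low for *Gbp2* (0.956), *Tlr13* (0.830), and *Epha2* (0.831).

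In 48 of the same 152 genes the difference between NPmut and NrasG12D mice itself differed from that between p53mut and control mice, by the interaction term. Its values on the log2 scale were negative for 34 genes, as follows: Gm4951 −5.63, Iigp1 −4.08, Cavin2 −3.97, Tek −3.84, Tgtp1 −3.76, Pf4 −3.72, Oas2 −3.72, Slamf1 −3.70, Gm17590 −3.69, Ifit1 −3.51, Ifi44 −3.47, Slc18a2 −3.41, Usp18 −3.36, Apoe −3.35, Gp1ba −3.16, Oasl2 −3.10, Ptpn14 −3.09, Rtp4 −3.08, Tie1 −2.89, Vwf −2.86, Selp −2.84, Oas3 −2.70, Gata2 −2.55, Ddx58 −2.40, Irf7 −2.40, H2-Q7 −2.21, Irgm2 −1.94, H2-Q6 −1.91, Gbp2 −1.71, Trp53inp1 −1.54, Ifih1 −1.53, Irgm1 −1.51, Igtp −1.29, Irf9 −1.17. They were positive for 14 genes, as follows: Hopx 3.66, Glt1d1 3.56, I830127L07Rik 3.40, Tnf 2.78, Id2 2.03, Cybb 2.01, Ccr2 1.53, Irf5 1.49, Irf8 1.49, F13a1 1.46, Unc93b1 1.30, Ifi30 1.19, Nfkbia 1.17, Rasa4 1.07. Which of the second allele, the missing pI-pC, or the disease stage goes with these differences cannot be told apart.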

How the results depend on the processing

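For NPmut against NrasG12D, the numbers of higher and lower genes were 187 and 253 when the compared groups alone were fitted, and 306 genes were lower with at least 10 counts required in every library. Leaving out 1 mouse at a time gave 143 to 405 higher and 289 to 586 lower genes. Library totals in place of TMM moved the median of all genes from 0.04 to −0.04 and the share of higher genes among DEGs from 41.0% to 35.1%. The interaction was positive for 256 genes and negative for 363 with DESeq2, for 308 and 343 without a filter on low counts, and positive for 135 with the replicate block. Without 1 mouse at a time it was positive for 6 to 204 and negative for 55 to 327 genes. For p53mut against control, DESeq2 called 1 higher and 2 lower genes, no filter gave 2 and 7, the compared groups alone gave 1 higher, and leaving out 1 mouse gave 0 to 1 lower. *Flt3*, which was not called, changed sign to −0.048 with library totals, −0.0019 with the compared groups alone, and −0.063 with sex as a term, and ran from −0.31 without NPmut mouse 3 to 0.20 without NrasG12D mouse 2 when 1 mouse was left out. Of the named genes, 61 of the 106 that were called kept their call in every alternative, and 0 of the called genes changed direction in any. Calls of named genes were lost for 26 with the compared groups alone, 13 without a filter on low counts, 10 with the replicate block, 3 with library totals, and 2 with sex as a term. Requiring 10 counts in every library left fewer members to test, so that 7 of 8 megakaryocyte genes, 5 of 10 GTPases, 3 of 6 mast cell and basophil genes, and 2 of 26 p53 targets fell, and 3 of 18 Toll-like receptor genes and 3 of 10 cytokine genes rose. Of dendritic cell genes 1 of 3 rose, with a median of −0.18. With the compared groups alone, 1 class II gene, 1 neutrophil gene, and 0 erythroid genes were called, while the replicate block gave 5 lower erythroid and 5 higher dendritic cell genes. Whether replicate numbers pair the mice is not known here. Deviations of same-numbered NPmut and NrasG12D mice correlated at 0.17, 0.29, and −0.11, and those of other-numbered mice at −0.27 to 0.19. NPmut mouse 4 had a number of its own. With the replicate block, 353 genes were higher and 535 lower, of which 260 and 415 were DEGs without it. The causes of these shifts were not tested. Low counts limit genes near 1 CPM, whose folds depend on few reads.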

Other observations

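Lists of lymphoid and other cells were read against backgrounds of 1.81% higher and 2.6% lower genes. Of 12 lymphoid progenitor genes, 1 rose and 0 fell, the transcription factor *Ikzf3* (log2 fold change 1.82, adjusted p = 0.0344), and of 5 B cell genes 1 rose, the heavy chain *Ighm*, at 102, 116, and 101 CPM in NrasG12D and 224, 305, 184, and 149 CPM in NPmut mice (log2 fold change 1.02, adjusted p = 0.0148). Both changes were lost without some mice, *Ikzf3* without NPmut mouse 1 or 4 or NrasG12D mouse 1, 2, or 3 (adjusted p = 0.0583 to 0.142) and *Ighm* without NrasG12D mouse 1 or 3 (adjusted p = 0.0600 to 0.0682), and changed by under 2-fold without NPmut mouse 1 or NPmut mouse 2. Of 5 T and NK cell genes tested, 0 were DEGs. The median was 0.57 for the lymphoid progenitor list, 0.98 for the B cell list, and −0.09 for the T and NK cell list. Without a filter on low counts, 14 stromal and endothelial genes were tested, 3 were called lower, and the median was −0.12. With the filter, 5 were tested. Of these, 4 lay lower in every NPmut mouse than in any NrasG12D mouse, against 11.2% of all genes, with a median of −1.49. The test was passed by 2, the endothelial genes *Plvap* (log2 fold change −1.49, adjusted p = 0.00871) and *Kdr*, a VEGF receptor with 46, 46, and 34 counts in NrasG12D and 15, 3, 0, and 0 in NPmut mice (adjusted p = 0.00876), which lost its call with the compared groups alone (adjusted p = 0.0644). Of 7 genes of the Hoxa cluster tested, *Hoxa3* fell (log2 fold change −1.11, adjusted p = 0.0335), a call that was lost without NPmut mouse 1 or NrasG12D mouse 1, 2, or 3 (adjusted p = 0.0501 to 0.135), and changed by under 2-fold without NPmut mouse 2, while *Hoxa9*, a regulator of self-renewal, was at 31.4, 29.1, and 31.1 CPM in NrasG12D and 21.5, 16.2, 23.3, and 20.2 CPM in NPmut mice (log2 fold change −0.59, adjusted p = 0.0203).

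In NPmut mouse 2, genes of chromosome 13 had a median log2 difference of 0.27 from the NrasG12D mean over 406 genes and those of chromosome X one of 0.20 over 307 genes, while the next of this mouse was chromosome 10 at 0.14. A cause was not tested.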
